A study of Canis lupus familiaris with 26 samples.

Results

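The genes described here are POSTN, TNC, THBS2, SMOC2 and CILP, which encode matricellular proteins of connective tissue. They make up 5 of the 18466 genes in the deposited table, and their identifiers were found by symbol in the lists that pair dog gene identifiers with names. They were chosen by their measured difference between tumour stroma and normal stroma, with earlier results of these data known. Their values in that comparison are therefore a description. Calls from the models over all genes are counted for them beside the share of all genes called, and nothing is read from those counts.

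Matricellular proteins are secreted into the extracellular matrix, where they are not mainly load-bearing but bind collagens, growth factors, proteases and cell surface receptors such as integrins. Many are low in resting adult connective tissue and appear during development, wound repair and the reaction of stroma to a tumour. Fibroblasts are their main source in most connective tissues, and transforming growth factor beta (TGF-beta) is a well-known inducer of several of them.

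RNAseq was performed on stroma cut by laser-capture microdissection from formalin-fixed, paraffin-embedded canine simple mammary adenomas, benign tumours of the mammary gland. From each of 13 female dogs there was 1 sample of adenoma-associated stroma (AAS) and 1 of normal stroma, taken on the same slides next to unaltered glands away from the tumour. The tumours were spontaneous, the dogs were 6 to 13 years old, and the blocks were 4 to 29 months old when analysed. In the labels the AAS samples are named cancer-associated stroma, although the disease state given there is adenoma. No dog was treated experimentally, and the groups share every feature of a dog other than the place of sampling, so the tumour itself cannot be told apart from where on the slide the stroma lay. Pair 14 was left out of the comparisons, following the study, because of the depth of its normal sample, which leaves 12 pairs and 24 samples.

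Total counts ranged from 419770 to 1614120 per sample over the 24 samples, and levels are given as CPM, the counts divided by the library size after scaling by the trimmed mean of M-values (TMM), on the usual CPM scale. A pair of AAS libraries stood apart. In the AAS library of pair 7 a single gene took 84.9% of all counts, which left a scaled library of 107107 counts, and the AAS library of pair 10 had the lowest total. A gene with no count in these libraries could still have been present at up to 28.0 CPM in pair 7 and 10.5 CPM in pair 10, the level of 3 counts, against a median limit of 2.63 CPM over the AAS samples. Such limits cover counting error only. The dissected tissue carried the RNA of fibroblasts: the 8 of 11 fibroblast markers with an identifier, among them COL1A1, COL3A1 and DCN, summed to between 1607 and 21180 CPM in normal stroma and between 623 and 7035 CPM in AAS. Because these are bulk samples, fewer cells of a type and less RNA per cell cannot be told apart.

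POSTN, TNC, SMOC2 and CILP had higher mean levels in AAS than in normal stroma, and THBS2 had a lower one. The fitted log2 fold changes, from the quasi-likelihood model of edgeR without a term for the dog, were 1.36 (SE 0.61) for POSTN, 2.34 (SE 0.76) for TNC, 2.24 (SE 0.78) for SMOC2, 2.05 (SE 0.65) for CILP and -1.36 (SE 0.53) for THBS2. None of the genes showed its direction in all 12 dogs. The pair-by-pair values below therefore carry most of the description.

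**Figure D1:**
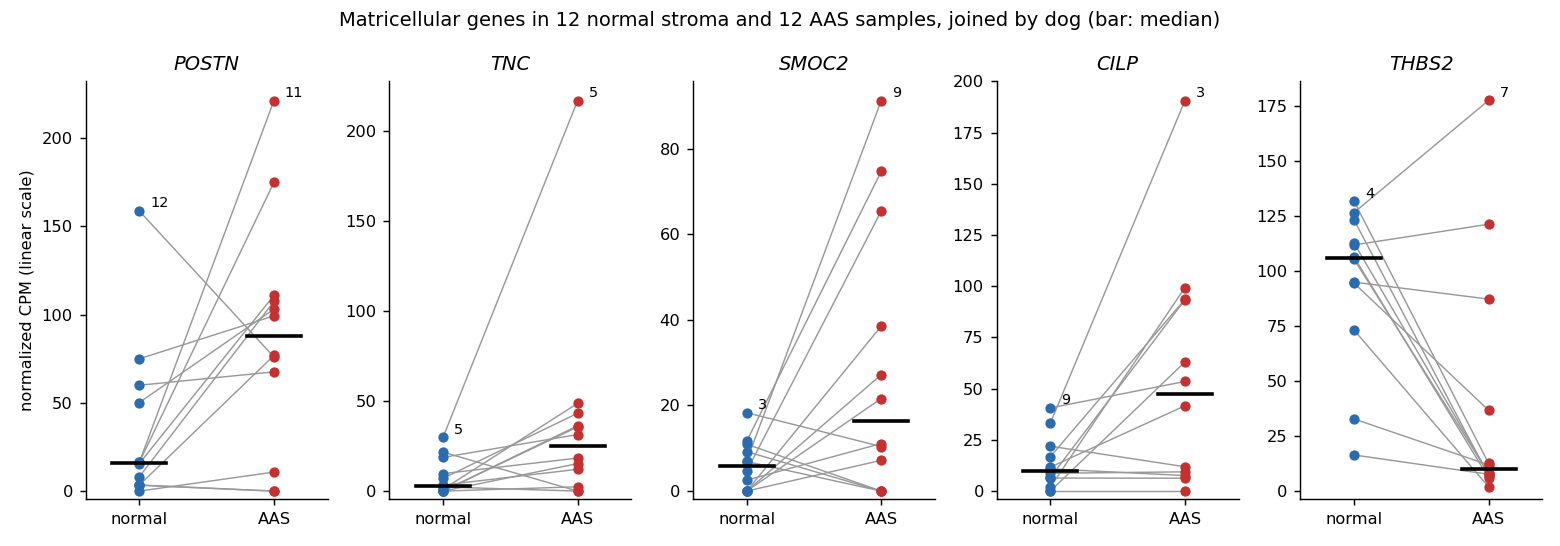
Normalized CPM (linear axis, starting at 0) of the 5 genes in 12 normal stroma samples (blue) and 12 AAS samples (red), with lines joining the samples of 1 dog, black bars for medians and the pair number beside the highest sample of each group. The AAS medians lie above the normal medians for POSTN, TNC, SMOC2 and CILP, while 8 of 12 AAS samples of THBS2 lie below its lowest normal sample of 16.4 CPM.

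POSTN encodes periostin, a secreted protein that binds integrins and promotes collagen assembly. In normal stroma its lowest, median and highest levels were 0, 16.0 and 159 CPM, and in AAS they were 0, 88.1 and 221 CPM. The groups overlapped, with 2 of 12 AAS samples above the highest normal sample, pairs 6 and 11 at 175 and 221 CPM. At least 2 AAS samples lay above the highest normal sample for 29.6% of the 4544 genes tested. The mean was 34.2 ± 46.5 CPM in normal stroma and 87.4 ± 66.6 CPM in AAS (SD, n = 12 each). The study, in batch-adjusted data merged with stroma of malignant mammary tumours, describes POSTN as nearly unchanged between normal stroma and AAS. Its scaling and set of samples differ from those used here.

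Within dogs, 9 of 12 pairs had more POSTN in AAS. The share of tested genes higher in at least 9 pairs was 9.55%. The largest log2 difference was in pair 3, from 3.43 CPM to 76.9 CPM. Of the 3 pairs in which POSTN was lower in AAS, pairs 7 and 10 had no count in AAS, and their normal levels of 3.33 and 3.45 CPM lay under the limit that those AAS libraries could show. A lower level was thus not detectable at this depth in either. Pair 12 was the remaining exception, with the highest normal level of all (159 CPM) and 76.0 CPM in AAS.

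TNC encodes tenascin-C, a large multimeric glycoprotein that modulates cell adhesion and is a hallmark of remodelling matrix. It was scarce in normal stroma, where 4 of 12 samples had no count and the lowest, median and highest levels were 0, 2.83 and 29.8 CPM. In AAS the corresponding levels were 0, 24.9 and 217 CPM, and 6 of 12 samples lay above the highest normal sample. For comparison, 2.11% of tested genes had at least 6 AAS samples above the highest normal one. Pair 5 held the highest sample in both groups, and its AAS sample alone contributed 47.1% of the summed AAS level. Without pair 5 the log2 fold change was 1.99.

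TNC stood higher in AAS than in the normal sample in 10 of 12 pairs, against 3.79% of tested genes with at least 10. Both exceptions were again the small AAS libraries of pairs 7 and 10, which had no count. Their normal samples stood at 21.6 and 2.30 CPM, below the limits of 28.0 and 10.5 CPM, so that the direction in these dogs was not detectable. In the other dogs the AAS level ran from 2.40 CPM in pair 3 to 217 CPM in pair 5. The value of pair 3 rested on 3 counts. Its normal sample had no count and a limit of 3.43 CPM, so the direction in that dog was not detectable either. The means were 7.80 ± 10.2 CPM in normal stroma and 38.4 ± 58.7 CPM in AAS (SD, n = 12 each).

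SMOC2 encodes a calcium-binding protein of the SPARC family, secreted into the matrix and basement membrane region. Its counts were low, with a mean of 5.75 counts in normal stroma and 34.0 in AAS, and the filter on low counts removed it. Its fitted value comes instead from the model that kept every gene with a mean of at least 5 counts. Its lowest, median and highest levels were 0, 5.79 and 18.3 CPM in normal stroma and 0, 16.4 and 91.2 CPM in AAS. The highest AAS sample belonged to pair 9, followed by pair 7 at 74.7 CPM, which rested on 8 counts, and pair 6 at 65.4 CPM. In all, 6 of 12 AAS samples lay above the highest normal sample. At least 6 did so for 2.11% of tested genes, a set that does not hold SMOC2.

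In AAS the level of SMOC2 was the higher one in 8 of 12 pairs, a count reached by 20.9% of tested genes. It was lower in pairs 3, 8, 10 and 15, and in the last 3 of these AAS had no count. In pairs 8 and 15 the normal levels of 11.0 and 9.22 CPM exceeded the AAS limits of 3.96 and 5.73 CPM, whereas in pair 10 the normal level of 6.91 CPM did not. The SD of the within-dog log2 difference, 2.70, was the widest among the 5 genes.

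CILP encodes cartilage intermediate layer protein, a matrix protein known for antagonizing TGF-beta and insulin-like growth factor signalling. Its lowest, median and highest levels were 0, 9.76 and 40.6 CPM in normal stroma and 0, 47.6 and 191 CPM in AAS, and 7 of 12 AAS samples lay above the highest normal sample. Among tested genes, 1.03% reached 7. The AAS samples fell apart into 7 at 41.6 CPM or more and 5 at 11.9 CPM or less, with none between. CILP was higher in AAS in 8 pairs, lower in pairs 4, 5 and 8, and without a count in both samples of pair 10.

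The size of the CILP difference varied widely among dogs. Pairs 9 and 11 differed by 0.38 and 0.09 on the log2 scale and pair 4 by -0.01, while pairs 13 and 15 differed by 4.72 and 5.09. In those last dogs CILP went from 1.94 to 99.3 CPM and from 0 to 63.0 CPM. The means were 13.2 ± 12.9 CPM in normal stroma and 55.9 ± 56.5 CPM in AAS (SD, n = 12 each).

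THBS2 encodes thrombospondin-2, which restrains angiogenesis and collagen fibril growth and binds the receptors CD36 and CD47. It was the steadiest of the 5 genes in normal stroma, with a coefficient of variation of 38.6% against 97.6% to 136% for the others, and its lowest, median and highest levels there were 16.4, 106 and 132 CPM. In AAS the levels were 1.90, 9.95 and 177 CPM, with a coefficient of variation of 142%. In AAS 8 of 12 samples, in pairs 3, 4, 5, 6, 8, 10, 11 and 15, stood between 1.90 and 12.6 CPM, all under the lowest normal sample. At least 8 AAS samples lay below the lowest normal sample for 1.23% of tested genes.

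The other 4 AAS samples of THBS2 reached 36.7 CPM in pair 9, 87.2 CPM in pair 13, 121 CPM in pair 12 and 177 CPM in pair 7. THBS2 was lower in AAS in 10 of 12 pairs, against 6.84% of tested genes with at least 10, and higher in pairs 7 and 12. The value of pair 7 rested on 19 counts. The means were 94.1 ± 36.3 CPM in normal stroma and 40.4 ± 57.2 CPM in AAS (SD, n = 12 each). The fitted fold change depended both on the block and on pair 14. Over 12 pairs the log2 fold change was -1.36 (SE 0.53) without the block and -2.21 (SE 0.50) with the dog as a block. When pair 14 was added it was -0.74 without the block and -1.90 with it.

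**Figure D2:**
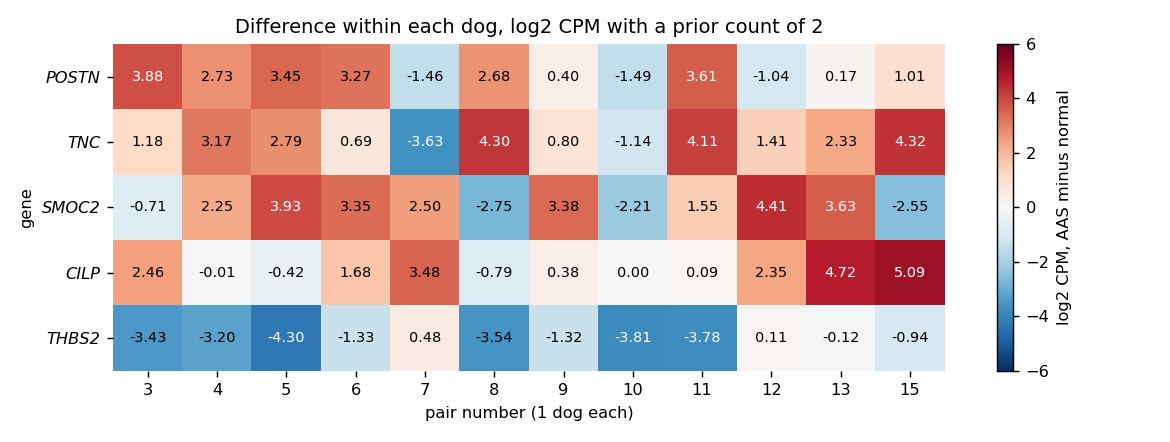
Difference in log2 CPM (AAS minus normal stroma, prior count of 2) of the 5 genes (rows) in the 12 dogs (columns), with the value in each cell, red where AAS is higher and blue where it is lower. Pairs 6, 9, 11 and 13 show all of POSTN, TNC, SMOC2 and CILP higher with THBS2 lower, and pair 10 shows POSTN, TNC and SMOC2 lower beside no count of CILP.

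Read by dog, 4 of 12 cases (pairs 6, 9, 11 and 13) had all of POSTN, TNC, SMOC2 and CILP higher in AAS together with lower THBS2. In 8 of 12 cases at least 3 of those 4 genes were higher with THBS2 lower. These counts rest on the sign alone, whatever the size of the difference. They include small log2 differences, such as 0.09 for CILP in pair 11, and 0.17 for POSTN and -0.12 for THBS2 in pair 13. They also include TNC in pair 3, where the direction was not detectable. How often other genes form such a pattern was not tested. Pair 10 had no count of any of the 4 in AAS, and pair 7 none of POSTN and TNC. Without pairs 7 and 10 the log2 fold changes were 1.37 for POSTN, 2.70 for TNC, 2.40 for SMOC2, 1.92 for CILP and -1.54 for THBS2.

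SMOC2 and THBS2 lie next to each other among the protein-coding genes of chromosome 1 in the RefSeq annotation of the dog assembly UU_Cfam_GSD_1.0, with 2 non-coding genes between them. Their group means differed in opposite directions, and SMOC2 was higher while THBS2 was lower in 6 of 12 dogs. POSTN on chromosome 25 and CILP on chromosome 30 each overlap 1 long non-coding RNA gene in the same annotation. Whether the counting used strand is not given in the sources used here, and whether the overlapping genes share reads in these counts was not tested.

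A gene was called where the adjusted p-value (Benjamini-Hochberg over all genes tested) was below 0.05 and the log2 fold change beyond 1 in either direction. By that rule 82 of 4544 genes, or 1.8%, were called by edgeR without the block. Of the 5 genes, 4 were tested in that model and 0 were called, all 4 having an unadjusted p below 0.05, as 10.5% of tested genes did. With the dog as a block THBS2 was called, with 2.53% of genes called and 1.89% called lower. DESeq2 called CILP and TNC, with 2.95% of genes called, and with the block CILP, POSTN, THBS2 and TNC, with 5.0%. With a mean of at least 5 counts, which lets SMOC2 in, edgeR called 0 of the 5 without the block (1.97% of genes, all 5 with an unadjusted p below 0.05) and POSTN and THBS2 with it (2.36%), and with no filter it called 4 of 5 (9.16% of genes). Adding pair 14 to the block model left 0 of the 4 called, with 2.48% of genes called, all 4 having an unadjusted p below 0.05, and THBS2 at a log2 fold change of -1.90. Over 12 block models that each left out 1 dog, THBS2 was called in 12, POSTN in 2, TNC in 1 and CILP in 0. With pairs 7 and 10 left out, the block model called POSTN, THBS2 and TNC, with 1.94% of genes called. As the genes were chosen with this contrast known, nothing about them is read from these counts.

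**Figure D3:**
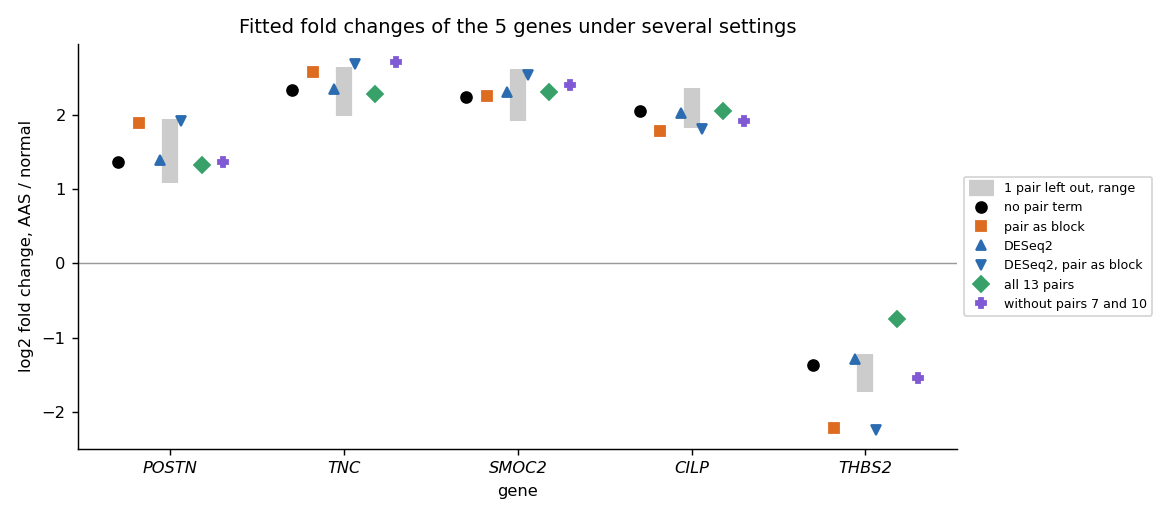
Fitted log2 fold change (AAS over normal stroma, linear axis in log2 units) of the 5 genes under 6 settings, with grey bars for the range over models that leave out 1 dog. Every setting drawn keeps POSTN, TNC, SMOC2 and CILP above 0 and THBS2 below 0, and THBS2 shows the widest gap between settings, from -2.24 with DESeq2 and the dog as a block to -0.74 with all 13 pairs.

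The next question was whether related genes moved as well. Of 29 other matricellular genes listed by family, 12 had an identifier and 8 passed the filter on low counts. By edgeR without the block 0 of these 8 were called higher and 1 lower, beside 0.616% and 1.19% of all genes tested. An unadjusted p below 0.05 was found for 6 of them, beside 10.5% of all genes tested. Symbols came from lists partly sorted by the same comparison, so listed genes with an identifier are more often genes that changed. The median log2 fold change of the 8 was 0.08, beside 0.01 over all genes tested. The gene called was TNXB, the tenascin-X gene, whose product organizes collagen fibrils. It fell from 599 ± 261 CPM to 94.9 ± 93.7 CPM (SD, n = 12 each), with a log2 fold change of -2.64 (SE 0.43, edgeR adjusted p = 0.000174), and AAS held less of it in 12 of 12 pairs. The other tenascin with an identifier, TNC, had its higher mean in AAS. TNXB overlaps the protein-coding gene CYP21A2 in the RefSeq annotation, and whether they share reads here was not tested.

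With the dog as a block, FSTL1, a follistatin-like protein of the SPARC family, was called lower as well. Its log2 fold change was -1.18 (SE 0.29, edgeR adjusted p = 0.0244), and -0.87 (adjusted p = 0.255) without the block, and it was lower in 12 of 12 pairs. THBS1, the thrombospondin-1 gene and closest relative of THBS2 in the list, was higher in 9 of 12 pairs. Its mean was 148 ± 102 CPM in normal stroma and 259 ± 141 CPM in AAS, and its log2 fold change of 0.81 (SE 0.33, edgeR adjusted p = 0.317) was not called. CCN2 and CCN4, secreted growth factor-binding proteins, had log2 fold changes of 0.31 and -0.16 with adjusted p-values of 0.860 and 0.953 in edgeR. FBLN5, the elastic fibre protein fibulin-5, had 0.99 (edgeR adjusted p = 0.472).

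Receptors and binding partners of matricellular proteins were examined next. Of 26 listed, 15 had an identifier, 9 passed the filter, and 0 were called by edgeR without the block, beside 1.8% of all genes, with 5 at an unadjusted p below 0.05, beside 10.5%. DESeq2 without the block also called 0. The median log2 fold change of the 9 was -0.57. With the dog as a block 1 gene, ITGA5, the alpha subunit of the fibronectin receptor, was called lower, at -1.07 (SE 0.29, edgeR adjusted p = 0.0434), beside 1.89% of all genes called lower in that model. It was lower in 11 of 12 pairs, with means of 107 ± 44.0 CPM in normal stroma and 54.1 ± 27.7 CPM in AAS. LRP1, an endocytic receptor that takes up thrombospondins, had a log2 fold change of -0.57 (adjusted p = 0.316 in edgeR). ITGB1 and ITGAV, integrin subunits shared by many matrix receptors, had -0.25 and 0.54, with adjusted p-values of 0.760 and 0.430 in edgeR. ITGA3, a laminin-binding integrin subunit, had 0.69 (edgeR adjusted p = 0.451).

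Genes of the TGF-beta axis were taken last. Of 25 listed, 10 had an identifier and 7 passed the filter, with a median log2 fold change of -0.59. By edgeR without the block 1 of the 7 was called higher and 0 lower, beside 0.616% and 1.19% of all genes tested. The gene called was LTBP2, a member of the latent TGF-beta-binding protein family that associates with elastic fibres. It rose from 10.8 ± 12.5 CPM to 93.4 ± 59.6 CPM (SD, n = 12 each), a log2 fold change of 3.17 (SE 0.56, edgeR adjusted p = 0.000456), and was higher in 11 of 12 pairs. LTBP2 overlaps the protein-coding gene ISCA2 and a non-coding gene in the RefSeq annotation. The related LTBP4 had a log2 fold change of -0.73 (adjusted p = 0.597), and TGFBR3, the TGF-beta co-receptor betaglycan, had -1.05 (adjusted p = 0.222), both in edgeR. The mesenchymal transcription factor gene PRRX1 had -0.31 and the receptor gene NOTCH1 had 0.67, with adjusted p-values of 0.835 and 0.733 in edgeR.

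**Figure D4:**
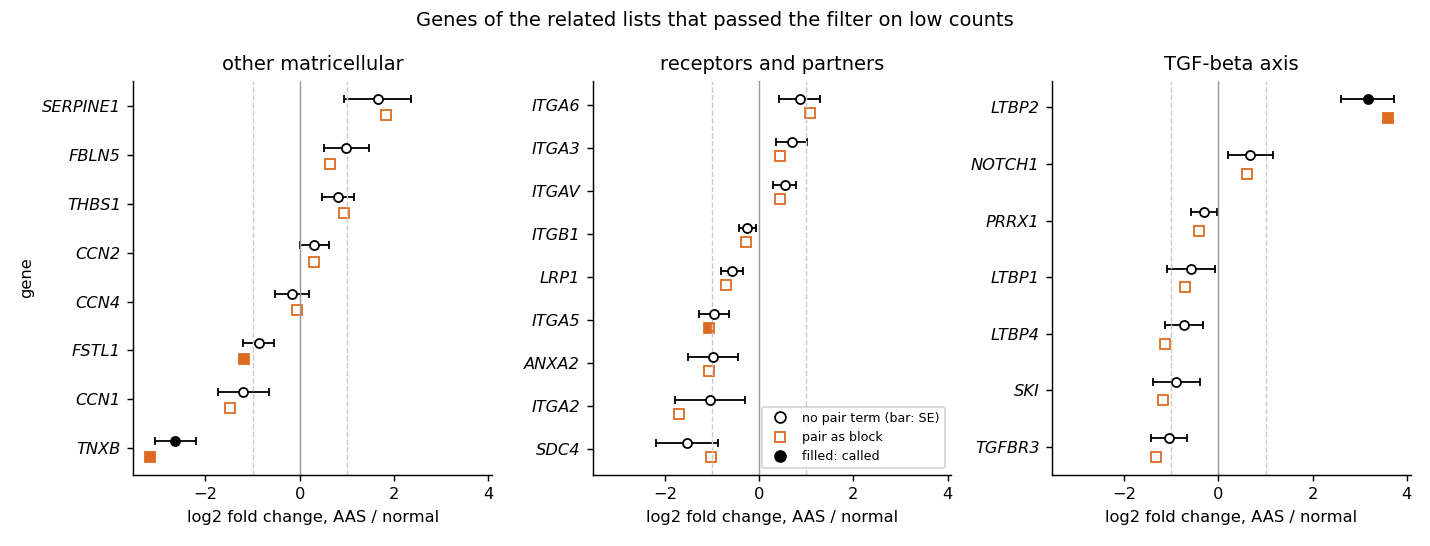
Log2 fold change (AAS over normal stroma) of the genes of 3 related lists that passed the filter on low counts, as black circles with SE bars without a pair term and orange squares with the dog as a block, filled where called, with dashed lines at a log2 fold change of -1 and 1. TNXB at -2.64 and LTBP2 at 3.17 are called in both models, and FSTL1 and ITGA5 in the block model alone.

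Markers of cell types that the dissected tissue could hold also differed between the groups. The summed fibroblast markers had a median of 5009 CPM in normal stroma and 2591 CPM in AAS and were lower in 10 of 12 pairs. DCN, the decorin gene, was called lower among them, with a log2 fold change of -1.96 (edgeR adjusted p = 0.00996). With the dog as a block COL1A2, a chain of type I collagen, was called lower as well, at -1.44 (edgeR adjusted p = 0.00204), with less of it in AAS in 12 of 12 pairs. COL1A1 held the largest part of the fibroblast sum, with means of 3781 CPM in normal stroma and 1579 CPM in AAS. PDGFRA and THY1 differed less, with log2 fold changes of -0.44 and -0.39 (edgeR adjusted p = 0.737 and 0.643). They were lower in 8 and 7 of 12 pairs. The smooth muscle and activated fibroblast genes ACTA2 and MYL9 (2 of 6 with an identifier) ran from 159 to 463 CPM in normal stroma and from 177 to 905 CPM in AAS. The epithelial genes EPCAM, CDH1, KRT19 and KRT15 (4 of 10) ran from 99.4 to 238 CPM and from 95.5 to 441 CPM, and were higher in AAS in 9 of 12 pairs. The leukocyte genes CD74, CD163, CSF1R and LYZ (4 of 8) summed to 47.0 to 245 CPM in normal stroma and 103 to 424 CPM in AAS. Their sum was higher in 10 of 12 pairs, and CD74 was called higher at 2.18 (edgeR adjusted p = 0.000347). CD163 and CSF1R went the other way, with log2 fold changes of -0.77 and -0.84, and were lower in 7 and 8 of 12 pairs. LYZ had means of 11.7 CPM in normal stroma and 11.6 CPM in AAS. The endothelial genes KDR and TEK (2 of 7) had medians of 47.7 and 44.3 CPM. The adipocyte gene LEP (1 of 6) had a median of 0, no pericyte marker had an identifier, and SOX9 (1 of 6 cartilage markers) had medians of 33.3 and 49.6 CPM. The part of these cell types in the levels of the 5 genes was not tested across the groups.

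Whether the 5 genes varied together was tested within each group, so that the contrast between the groups played no role. All 10 gene pairs were correlated on log2 CPM over the 12 normal and over the 12 AAS samples, 20 relations in all, by permutation tests (two-sided, 100000 resamples). None of the 20 passed at an adjusted p of 0.05. The strongest relation was POSTN with TNC in AAS, with Pearson's r = 0.78 (permutation p = 0.00402, adjusted p = 0.0804) and Spearman's rho = 0.71 (permutation p = 0.0124, adjusted p = 0.248). It rested on pairs 7 and 10, which had no count of either gene: without them r was 0.33. In normal stroma the same genes gave r = 0.11 (permutation p = 0.733, adjusted p = 0.887). The difference between the groups was not tested.

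THBS2 and CILP gave r = 0.58 in AAS (permutation p = 0.0489, adjusted p = 0.457) and rho = 0.59 (permutation p = 0.0465), with r = 0.48 without the samples farthest from the median. THBS2 and SMOC2 gave r = 0.54 (permutation p = 0.0686, adjusted p = 0.457) and rho = 0.55 (permutation p = 0.0682), with r = 0.37 without those samples. These values were positive although THBS2 differed from the other genes in the direction of its mean difference. In the AAS samples of pairs 7, 12 and 13, where THBS2 stayed at 87.2 CPM or above, CILP stood at 93.4 to 99.3 CPM. The values of pair 7 rested on 19 counts of THBS2 and 10 counts of CILP. The highest CILP level of all, 191 CPM in pair 3, went with 8.01 CPM of THBS2, and pair 15 had 63.0 CPM of CILP with 7.64 CPM of THBS2. In normal stroma r was 0.33 for THBS2 with CILP and -0.15 for THBS2 with SMOC2, with adjusted permutation p-values of 0.797 and 0.887.

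**Figure D5:**
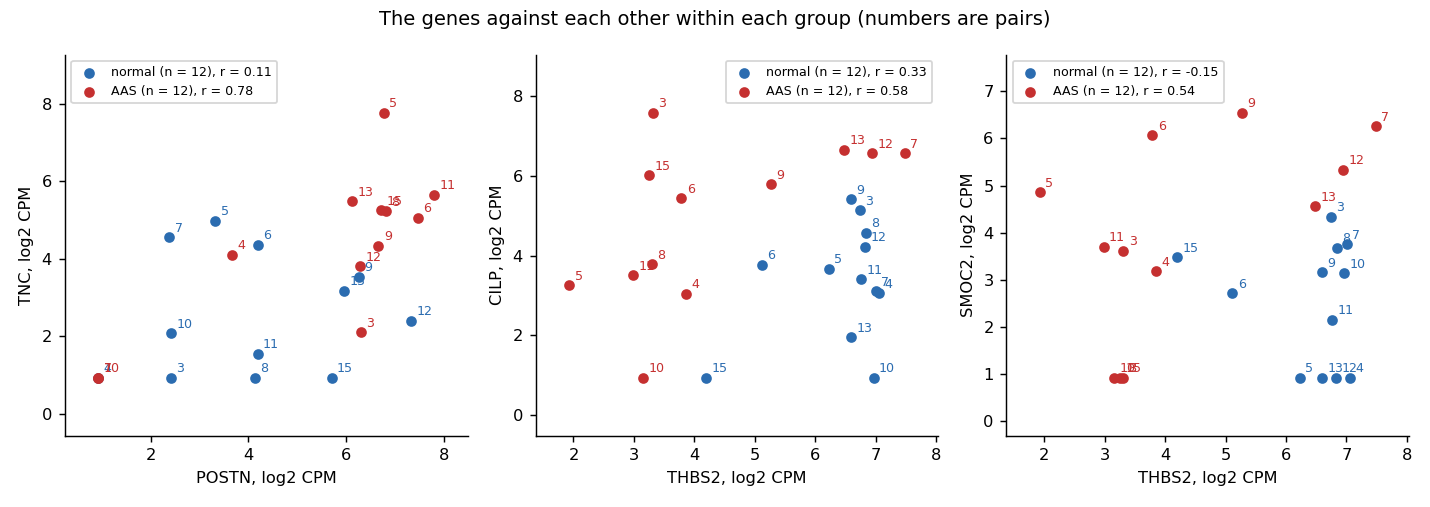
Log2 CPM of POSTN against TNC, THBS2 against CILP and THBS2 against SMOC2 in normal stroma (blue, n = 12) and AAS (red, n = 12), each point a sample labelled by its pair, with Pearson's r in the key. The AAS points of pairs 7 and 10 coincide at the lower left of the first panel, and r between POSTN and TNC falls from 0.78 to 0.33 without them.

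The scaled library size was compared with each gene in each group, 10 relations, of which 0 passed at an adjusted p of 0.05. In AAS it gave r = 0.79 with POSTN (permutation p = 0.00865, adjusted p = 0.0685) and rho = 0.37 (permutation p = 0.229), with r = -0.02 without the samples farthest from the median. With TNC it gave r = 0.68 (permutation p = 0.0137, adjusted p = 0.0685) and rho = 0.49 (permutation p = 0.105), with r = 0.08 without them. In normal stroma it gave r = 0.65 with POSTN (permutation p = 0.0216, adjusted p = 0.0721) and rho = 0.64 (permutation p = 0.0279), with r = 0.66 without the farthest samples. The summed fibroblast markers gave r = 0.72 with POSTN in AAS (permutation p = 0.00790, adjusted p = 0.158 over 20 relations) and rho = 0.57 (permutation p = 0.0558), with r = 0.36 without the samples farthest from the median. None of the 20 relations with the fibroblast and epithelial markers passed.

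The age of the dog and of the block were compared with each gene in each group, 20 relations, of which 0 passed at an adjusted p of 0.05 and 2 had an unadjusted permutation p below 0.05. Both concerned block age in normal stroma. POSTN was lower in older blocks, with r = -0.64 (permutation p = 0.0254, adjusted p = 0.294) and rho = -0.62 (permutation p = 0.0342), and r = -0.64 without the extreme samples. TNC was higher in older blocks, with r = 0.63 (permutation p = 0.0294, adjusted p = 0.294) and rho = 0.57 (permutation p = 0.0545), and r = 0.30 without them. In AAS the same relations were -0.50 and -0.21. The ages of the dogs gave r between -0.39 and 0.39 over the 5 genes and both groups.

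Finally, the genes whose pattern was most like that of each of the 5 were found among 1856 other genes with a symbol, those that passed the filter together with SMOC2, by Pearson's r of log2 CPM over the 24 samples after each group's mean was removed. These values describe the samples, which share depth and dogs, and carry no test. For POSTN they were PRRC2A (0.80), CALM3 (0.76) and PCSK5 (0.75), the last encoding a proprotein convertase. For TNC they were TCF7L1 (0.72), AAK1 (0.68) and MAP3K4 (0.64), and for THBS2 they were BCAT2 (0.69), PXDN (0.67), which encodes the basement membrane enzyme peroxidasin, and ASB1 (0.64). SMOC2 was closest to MFAP4 (0.78), a microfibril-associated protein, ELK3 (0.71) and GSN (0.70). CILP was closest to FBLN5 (0.66), DCN (0.63) and ESYT2 (0.62). None of the 5 appeared among the 3 genes closest to another of them.

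Within the groups, SMOC2 and MFAP4 gave r = 0.89 over the AAS samples and 0.34 over the normal samples, and SMOC2 and GSN gave 0.88 and 0.11. SMOC2 had no count in 3 of 12 AAS samples and in 4 of 12 normal samples, where its mean was 5.75 counts. For CILP and FBLN5 the values were 0.72 and 0.55. PCSK5 and POSTN gave 0.91 in AAS, where POSTN had no count in pairs 7 and 10, and 0.45 in normal stroma. These differences between groups were not tested.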

How the data were processed

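RNAseq was measured in 13 AAS and 13 normal stroma samples, and groups and pair numbers were taken from the labels. The authors quantified reads with kallisto 0.44.0 against Ensembl transcripts of CanFam3.1, summarized them per gene with tximport 1.8.0 and deposited estimated counts without normalization. Rounding the estimated counts changed 0 values. In R 4.3.3, edgeR 4.0.16 served for the filter on low counts (filterByExpr), TMM scaling and the quasi-likelihood model over 12 pairs, with no pair term, as the study's methods name none. DESeq2 1.42.0, which the authors used in another version, was an alternative, as were the pair as a block, RLE scaling, no filter, a mean of at least 5 counts, all 13 pairs, each pair left out and the 10 most counted genes left out. Log2 CPM carried a prior count of 2. The models were tested on simulated counts.

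Symbols were known for 3302 of 18466 identifiers, from lists partly sorted by the same comparison, so list members with a symbol are more often genes that changed. The 5 genes and all lists were chosen with earlier results of these data known. Genes named were the 5, every gene of the matricellular, receptor and TGF-beta lists called with or without the block, otherwise up to 4 per list by mean log2 CPM, and the 3 genes most like each of the 5. The markers named and the leaving out of pairs 7 and 10 were chosen with the values seen, as were all 13 pairs with a block. The pair number joins samples of 1 dog: deviations from the group means correlated at a mean r of 0.13 within pairs (-0.03 to 0.40) and -0.01 between pairs. The spread between samples of a group was 66.7% of a typical gene's mean (61.5% with the block). The labels give 4 ng of RNA per library and the methods another amount. Transcript lengths were not used, so levels of different genes are not compared. No sequences are shown.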

Additional observations from a re-analysis of the deposited data

Results flagged for a closer look

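The samples of pair 14 took no part in the comparisons. Its normal sample held 83727 counts and its AAS sample 824086. With all 13 pairs scaled together, 3 of the 5 genes stood in the AAS sample of pair 14 above the highest of the 12 other normal samples. THBS2 was at 265 CPM (265 counts), above that highest normal level of 136 CPM and above all 12 other AAS samples, the highest of which was at 185 CPM. This ran against the lower level of THBS2 in 10 of the 12 other dogs. SMOC2 was at 29.0 CPM against 18.9 CPM, and CILP at 61.1 CPM against 41.9 CPM. The normal sample of pair 14 had 8 counts of THBS2 (59.1 CPM), 0 of SMOC2 and 2 of CILP (14.8 CPM). POSTN and TNC had no count in either sample of the pair. With 1 pair there is no test.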

How the results depend on the processing

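The log2 fold changes of the 5 genes kept their direction in every alternative run. They ranged from 1.08 to 2.12 for POSTN, 1.99 to 3.20 for TNC, 1.92 to 2.71 for SMOC2, 1.58 to 2.35 for CILP and -2.33 to -0.74 for THBS2. Over the models leaving out 1 pair, the ranges were 1.08 to 1.95, 1.99 to 2.65, 1.92 to 2.62, 1.83 to 2.35 and -1.73 to -1.22, and genes called ranged from 71 to 99. The genes called were 82 without the pair as a block, 115 with the block, 134 with DESeq2, 227 with DESeq2 and the block, 153 and 183 with a mean of at least 5 counts without and with the block, and 1690 with no filter. Of the 5 genes, 0 were called without the block (1.8% of all genes tested) and 1 with it (2.53%). DESeq2 called 2 (2.95%), and 4 with the block (5.0%). With no filter 4 were called (9.16%), and 2 with a mean of 5 counts and the block (2.36%). The block model called 3 without pairs 7 and 10 (1.94%) and 0 with all 13 pairs (2.48%). The other matricellular genes called were 1, or 2 with the block, with DESeq2 and the block, with no filter, with a mean of 5 counts and the block, and with all 13 pairs and the block. Receptor genes called were 0, or 1 with the block, with DESeq2 and the block, and with a mean of 5 counts and the block. TGF-beta axis genes called were 1, or 2 with DESeq2 and the block. The causes were not tested.

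The POSTN and TNC correlation in AAS passed with a prior count of 0.5, with all 13 pairs and without pair 3, so that 1 relation was called there, against 0 otherwise (0 to 1 with 1 pair left out). Its adjusted permutation p ranged from 0.0248 to 0.513 over the 16 alternatives. Age relations stayed at 0 in every alternative run. Depth limits the low levels in normal stroma, where TNC had at most 3 counts in 6 of 12 samples and POSTN, SMOC2 and CILP in 4 each, against 0 for THBS2.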
